A study of Mus musculus with 12 samples.

Results

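Dopamine neurons of the midbrain make dopamine from tyrosine through the enzymes Th and Ddc, pack it into vesicles and take it back up after release, and their axons end most densely in the striatum of the forebrain. Striatal projection neurons read the signal through Drd1 in the cells of the direct pathway, which also make the tachykinin precursor Tac1, and through Drd2 in the cells of the indirect pathway, which also carry the adenosine receptor Adora2a and make the enkephalin precursor Penk. Ppp1r1b, better known as DARPP-32, is the phosphatase inhibitor through which both cell types pass on the cyclic AMP signal set by dopamine. The 10 genes described here were chosen by name for these roles, and all 10 were among the 19312 genes in the table. They are Th, Ddc, Slc6a3 and Slc18a2 for synthesis and transport, Drd1, Drd2 and Adora2a for reception, and Ppp1r1b, Penk and Tac1 for striatal signalling and neuropeptides. Each of the 10 had a mean normalized read count of at least 10 and entered every test.

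RNA was measured in 12 male C57BL/6N mice, namely 3 WT and 3 KO mice given vehicle (WT-Veh and KO-Veh) and 3 WT and 3 KO mice given memantine (WT-Mem and KO-Mem). KO mice carry a homozygous deletion of a pair of exons of Shank2, a postsynaptic scaffold gene. Memantine, a blocker of NMDA receptors, was given by mouth at 20 mg/kg 2 times a day from postnatal day 7 to 21, and the vehicle was 0.1% saccharin. The brains were collected at postnatal day 25, after dosing had ended, and the methods name the forebrain without the cerebellum and brain stem while the labels name the whole brain. In such bulk tissue, fewer cells of a type and less RNA per cell cannot be told apart.

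The region just upstream of a gene's start is where cyclic AMP acts on transcription, through the cyclic AMP response element with the letters TGACGTCA. RefSeq promoter windows (build GRCm38.p6, from 250 bases before to 50 bases after the start) were found for 7 of the 10 genes. Th and Slc18a2 hold the full element, which reads the same on both strands and occurs in 1.79% of the 32851 windows, starting at position -45 in Th and -4 in Slc18a2. None of the windows of Slc6a3, Ddc, Drd1, Drd2 and Tac1 holds these 8 letters. The windows of Th and Slc18a2 are shown from 200 bases before to 20 bases after the start, with the element in capitals, beside that of Slc6a3, whose counts differed most between the vehicle groups and which has no match. They lie at chr7:142899976-142900195 on the minus strand, chr19:59260678-59260897 on the plus strand and chr13:73536547-73536766 on the plus strand.
Th: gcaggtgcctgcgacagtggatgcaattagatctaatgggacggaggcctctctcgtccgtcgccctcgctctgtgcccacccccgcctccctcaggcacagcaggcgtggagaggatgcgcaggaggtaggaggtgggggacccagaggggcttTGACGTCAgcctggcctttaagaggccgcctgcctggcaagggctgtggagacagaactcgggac
Slc18a2: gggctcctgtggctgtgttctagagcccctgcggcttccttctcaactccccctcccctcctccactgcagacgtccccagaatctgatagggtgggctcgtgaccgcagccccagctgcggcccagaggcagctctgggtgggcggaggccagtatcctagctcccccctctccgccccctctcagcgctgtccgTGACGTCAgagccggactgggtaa
Slc6a3: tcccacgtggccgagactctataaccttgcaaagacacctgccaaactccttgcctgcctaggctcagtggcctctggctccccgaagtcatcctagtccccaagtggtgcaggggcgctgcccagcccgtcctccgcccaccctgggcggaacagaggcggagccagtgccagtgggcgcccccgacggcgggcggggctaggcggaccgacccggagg

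Per kb of exon, the genes made in striatal neurons stood above the genes of dopamine synthesis and transport in every mouse. Penk had the highest level, with a mean of 2623 normalized counts per kb over the 12 mice, and Ppp1r1b followed at 2349. These neighbours overlapped in range, with Penk above Ppp1r1b in 10 of 12 mice. Among the receptors, Adora2a (472 per kb) stood above Drd2 (383 per kb) in 12 of 12 mice. Tac1 (274 per kb) and Drd1 (258 per kb) overlapped, with Tac1 higher in 9 of 12 mice. Th had a level of 168 per kb, Slc6a3 of 128 per kb, Ddc of 108 per kb and Slc18a2 of 65.5 per kb, and of these only Slc6a3 and Ddc changed places in some mice, with Slc6a3 higher in 10 of 12.

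The KO labels were matched by the targeted gene. Shank2 had 2706 to 3178 normalized read counts in the KO mice and 7156 to 8548 in the WT mice, and it fell by 1.45 on the log2 scale in KO mice over both treatments (SE 0.055, adjusted p = 9.19e-10, limma). The sum of all normalized counts of a mouse was 30373849 to 31199251, which reflects scaling and not depth. Single mice carried markers of regions that the dissection was to leave out. Fat2, a cerebellar granule cell gene, had 950 normalized read counts in KO-Veh mouse 3 and 9.54 to 66.1 in the other 11 mice, and Tph2, the enzyme of serotonin synthesis in the raphe nuclei of the brain stem, ranged from 16.7 to 230.

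None of the 10 genes passed an adjusted p of 0.05 in any of the 9 comparisons. The comparisons were made with limma on log2(normalized count + 1), with p-values adjusted over all genes tested. Background differed widely between them: 10.8% of all genes were called between KO and WT mice over both treatments, 3.37% between KO-Mem and WT-Veh mice, 0.0283% in Veh-K/W transcripts (KO-Veh against WT-Veh), 0.068% in Mem-K/W transcripts (KO-Mem against WT-Mem), 0.0114% in WT-M/V transcripts (WT-Mem against WT-Veh), 0.0227% between WT-Mem and KO-Veh mice, and 0% in KO-M/V transcripts (KO-Mem against KO-Veh), for memantine over both genotypes and for the genotype by memantine interaction. At an unadjusted p under 0.05, 4 of the 10 genes were past the line in Veh-K/W transcripts against 14.4% of all genes, 2 in Mem-K/W transcripts against 21%, 2 in KO-M/V transcripts against 8.88%, 1 in WT-M/V transcripts against 3.97% and 4 in the genotype comparison over both treatments against 29.5%. The 10 genes had a median log2 difference, without its sign, of 0.165 in Veh-K/W transcripts against 0.125 over all genes, and of 0.0453 in Mem-K/W transcripts against 0.157 over all genes. The 9 comparisons share mice, so their values are given side by side and were not tested against each other except through the interaction.

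**Figure D1:**
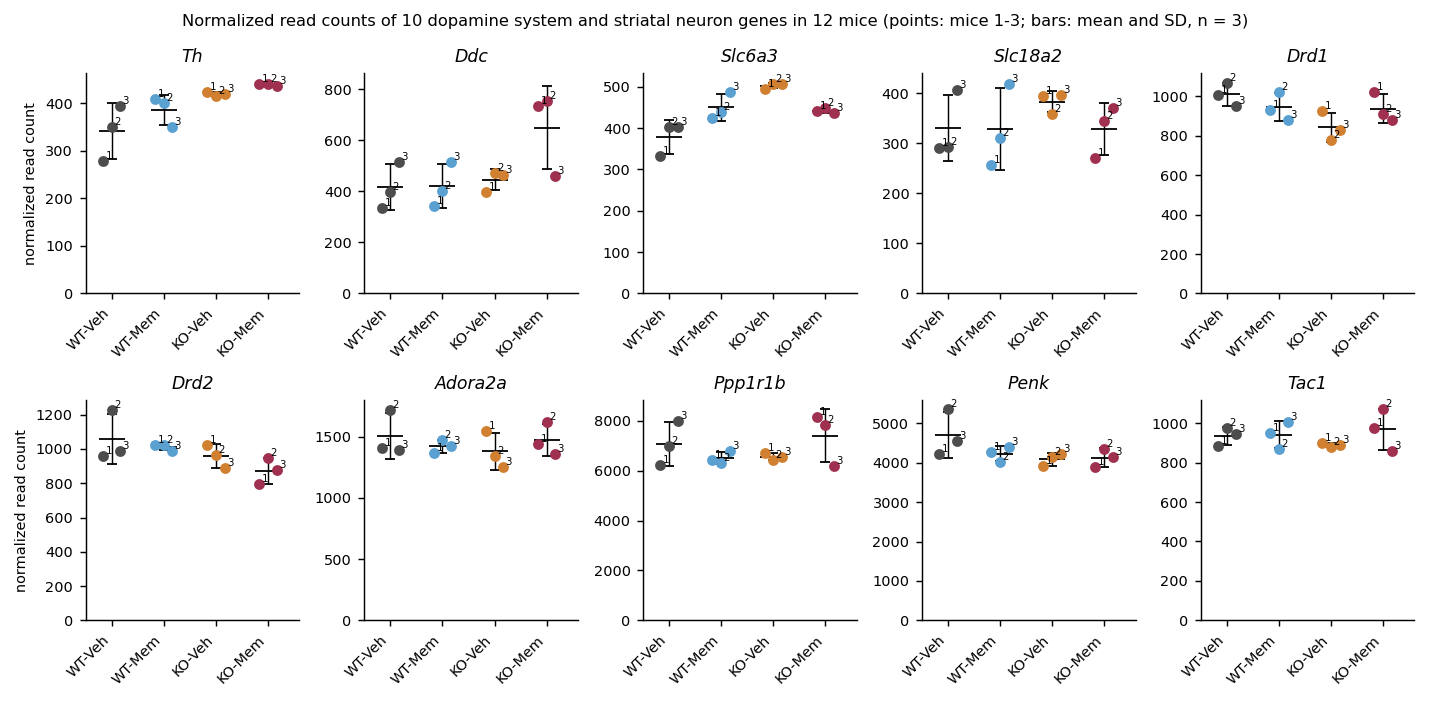
Normalized read counts (vertical axis, from 0) of the 10 genes in the 4 groups; points are mice, numbered 1 to 3, and black bars give the mean and SD (n = 3). Th lay at 416 to 441 in the 6 KO mice and at 278 to 408 in the 6 WT mice, and Ddc stood at 733 and 756 in KO-Mem mice 1 and 2 and at 336 to 516 in the others.

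Th (tyrosine hydroxylase, the rate-limiting enzyme of dopamine synthesis; ENSMUSG00000000214, chromosome 7, 142892752 to 142931128 in GRCm38) was the member nearest to a call. Its normalized read counts were 278, 350 and 394 in WT-Veh mice 1 to 3 and 408, 401 and 349 in WT-Mem mice. They were 423, 416 and 420 in KO-Veh mice and 440, 441 and 437 in KO-Mem mice. Every KO mouse was above every WT mouse, an order that 1.86% of all genes showed in this direction, and the KO mice lay far closer together than the WT mice.

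Over both treatments, Th averaged 429 ± 11.2 (SD, n = 6) in KO mice and 363 ± 49.0 (SD, n = 6) in WT mice. The log2 difference was 0.25 (SE 0.081, 95% interval 0.08 to 0.42) with an unadjusted p of 0.00706 and an adjusted p of 0.0569, just short of the threshold. The call was gained when every mouse was given the same sum (adjusted p = 0.0481), when the log2 values were centred on their median (adjusted p = 0.0416) and without WT-Veh mouse 3 (0.30, adjusted p = 0.0354), and over the leave-one-out fits the adjusted p ranged from 0.0354 to 0.114. The difference was 0.31 (adjusted p = 0.304) in Veh-K/W transcripts and 0.19 (adjusted p = 0.312) in Mem-K/W transcripts. Between KO-Mem and WT-Veh mice it was 0.38 (adjusted p = 0.113). WT-Veh mouse 1 had the least Th, and without it the differences from WT-Veh mice were 0.17 for KO-Veh and 0.24 for KO-Mem mice, while without WT-Mem mouse 3 the difference in Mem-K/W transcripts was 0.12. The interaction for Th was -0.12 with a 95% interval of -0.48 to 0.23, so that neither a larger nor a smaller genotype difference under memantine could be told.

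Th lies 1.07 Mb from Shank2 on the same chromosome 7. Of the 41 genes tested within 2 Mb of Shank2, 7 were called in the genotype comparison, or 17.1% against 10.8% of all genes, and within 5 Mb 18 of 107 were called, or 16.8%. The part of linked sequence in the Th difference was not tested.

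Slc6a3 (the plasma membrane dopamine transporter, which takes released dopamine back into the neuron; ENSMUSG00000021609, chromosome 13, 73536747 to 73578672) had the smallest p of the members in Veh-K/W transcripts, although no test of it passed adjustment. It had 332, 403 and 402 normalized read counts in WT-Veh mice and 495, 506 and 506 in KO-Veh mice. With memantine it had 425, 439 and 487 in WT-Mem mice and 440, 448 and 436 in KO-Mem mice. The vehicle groups did not overlap, whereas the memantine groups did, with both memantine groups between the vehicle groups.

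In Veh-K/W transcripts Slc6a3 differed by 0.41 on the log2 scale, a 1.33-fold difference (SE 0.102, unadjusted p = 0.00228, adjusted p = 0.163, limma). In Mem-K/W transcripts the difference was -0.03 (95% interval -0.24 to 0.19, adjusted p = 0.901). Memantine mice differed from vehicle mice by 0.25 in WT-M/V transcripts (adjusted p = 0.978) and by -0.19 in KO-M/V transcripts (adjusted p = 0.56), without overlap between groups in either. Without WT-Veh mouse 1 the first of these was 0.16. The interaction was -0.44 (SE 0.134, 95% interval -0.72 to -0.15), with an unadjusted p of 0.00562 and an adjusted p of 0.947, and no gene of the table passed in the interaction. Over the leave-one-out fits this interaction stayed between -0.48 and -0.34.

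Ddc (aromatic L-amino acid decarboxylase, which forms dopamine from L-DOPA and serotonin from 5-hydroxytryptophan; ENSMUSG00000020182, chromosome 11, 11814101 to 11898144) was the most variable member, with a coefficient of variation of 28.0% over the 12 mice. Its normalized read counts were 336, 399 and 516 in WT-Veh mice and 344, 403 and 515 in WT-Mem mice. KO-Veh mice had 398, 474 and 463, and KO-Mem mice had 733, 756 and 462. KO-Mem mice 1 and 2 stood above all the other mice, and KO-Mem mouse 3 lay among them.

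Ddc differed by 0.61 on the log2 scale in Mem-K/W transcripts (SE 0.20, adjusted p = 0.14) and by 0.52 in KO-M/V transcripts (SE 0.178, adjusted p = 0.554), and by 0.63 between KO-Mem and WT-Veh mice (adjusted p = 0.0945). In Veh-K/W transcripts it differed by 0.11 (95% interval -0.22 to 0.44) and in WT-M/V transcripts by 0.02 (95% interval -0.38 to 0.41). KO-Mem mouse 3 decided these calls: without it Ddc passed in Mem-K/W transcripts (0.84, adjusted p = 0.0125), in KO-M/V transcripts (0.74, adjusted p = 0.0406) and between KO-Mem and WT-Veh mice (0.86, adjusted p = 0.0114). Calls over the whole table rose too without that mouse, in turn from 12 to 1911 genes, from 0 to 97 and from 595 to 2490. The gain was therefore not particular to Ddc. Without KO-Mem mice 1 and 2, an alternative chosen after the values were seen, the genotype difference over both treatments was 0.13 (adjusted p = 0.66) against 0.36 (adjusted p = 0.122) with all mice. The interaction for Ddc was 0.50 (95% interval -0.10 to 1.1, adjusted p = 0.947).

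Slc18a2 (the vesicular monoamine transporter VMAT2, which loads dopamine and serotonin alike into vesicles; ENSMUSG00000025094, chromosome 19, 59260896 to 59296012) had overlapping groups throughout the genotype and treatment comparisons. It had 291, 292 and 406 normalized read counts in WT-Veh mice, 256, 310 and 418 in WT-Mem mice, 393, 359 and 396 in KO-Veh mice and 270, 344 and 369 in KO-Mem mice. The log2 difference between KO and WT mice over both treatments was 0.12 (95% interval -0.14 to 0.39, adjusted p = 0.533). All 4 genes of synthesis and transport thus had positive genotype differences, with a median of 0.222 against 0.0035 over all genes, and none passed.

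**Figure D2:**
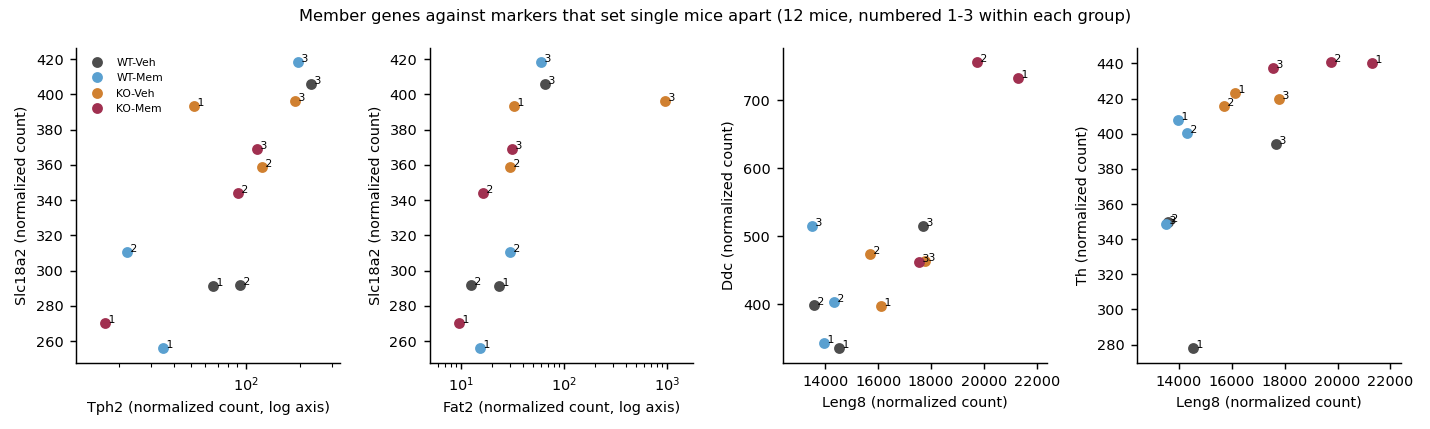
Normalized read counts of Slc18a2, Ddc and Th (vertical axes) against Tph2 and Fat2 (log axes) and Leng8 (linear axis) in the 12 mice, coloured by group and numbered within groups. Slc18a2 was highest in the mice with the most Tph2 and Fat2, and KO-Mem mice 1 and 2 held the highest values of both Leng8 and Ddc.

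Single mice differed in markers of other regions and cells, so the 10 members were set against 10 markers over the 12 mice, a choice made with the values known. Of the 100 pairs, 0 had a Pearson r and 6 a Spearman rho that passed adjustment over all 100. Slc18a2 was higher by rank in mice with more Fat2 (rho = 0.90, permutation p = 0.00024, adjusted 0.024; r = 0.64, permutation p = 0.00924, adjusted 0.145), with r = 0.81 without the 2 mice farthest in Fat2. It was likewise higher by rank with more Tph2 (rho = 0.80, permutation p = 0.00277, adjusted 0.0462; r = 0.76, permutation p = 0.00444, adjusted 0.0888; r = 0.75 without the 2 farthest mice) and with more of the serotonin transporter gene Slc6a4 (rho = 0.83, permutation p = 0.00127, adjusted 0.0462; r = 0.78, permutation p = 0.00336, adjusted 0.084; r = 0.55 without the 2 farthest mice). Serotonin neurons use this vesicular transporter too. After each group was centred on its mean, r with Slc18a2 was 0.81 for Tph2, 0.84 for Slc6a4 and 0.56 for Fat2. It was also 0.85 for the myelin gene Mbp and 0.65 for Chrna6 of the midbrain dopamine neuron list, whose relations with Slc18a2 did not pass adjustment. The centred values were thus not particular to markers of serotonin neurons. Drd2 was higher by rank with more Nr4a2 (rho = 0.83, permutation p = 0.0018, adjusted 0.0462; r = 0.79, permutation p = 0.00159, adjusted 0.084; r = 0.76 without the 2 farthest mice), with r = 0.54 after centring. The myelin gene Mbp ranked with Penk (rho = 0.80, permutation p = 0.00256, adjusted 0.0462; r = 0.55, permutation p = 0.0831, adjusted 0.416; r = 0.68 without the 2 farthest mice) and against Th (rho = -0.82, permutation p = 0.00203, adjusted 0.0462; r = -0.46, permutation p = 0.133, adjusted 0.574; r = -0.75 without the 2 farthest mice), but within groups r was 0.18 and 0.29, so that both relations lay mainly between groups. Leng8 reached 21299 and 19754 normalized read counts in KO-Mem mice 1 and 2 and 13505 to 17780 in the other 10, and its relations did not pass. Ddc had r = 0.78 with it (permutation p = 0.00204, adjusted 0.084; rho = 0.57, permutation p = 0.0552, adjusted 0.291), which came to 0.46 without those 2 mice, and Drd2 had r = -0.76 (permutation p = 0.0031, adjusted 0.084; rho = -0.79, permutation p = 0.00356, adjusted 0.0509), which came to -0.67. Leng8 was 15705 to 21299 in KO mice and 13505 to 17684 in WT mice, and the part of these markers in the members' differences was not tested.

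Drd1 (the receptor that raises cyclic AMP in direct pathway neurons; ENSMUSG00000021478, chromosome 13, 54051183 to 54055705) was lowest in the KO-Veh group. It had 1007, 1070 and 952 normalized read counts in WT-Veh mice and 924, 779 and 830 in KO-Veh mice, with no overlap. WT-Mem mice had 933, 1024 and 882 and KO-Mem mice had 1021, 913 and 879, with full overlap. The log2 difference was -0.26 in Veh-K/W transcripts (SE 0.087, adjusted p = 0.244) and -0.01 in Mem-K/W transcripts (95% interval -0.22 to 0.19). The interaction was 0.25 (95% interval -0.03 to 0.52, adjusted p = 0.947).

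Together with Slc6a3 and Th, which were higher, Drd1 made 3 of 10 genes whose vehicle groups did not overlap, against 20.4% of all genes. In Mem-K/W transcripts Th and Drd2 did not overlap, or 2 of 10 genes against 26.2%. Both shares are near the background.

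Drd2 (the receptor that lowers cyclic AMP in indirect pathway neurons and serves as an autoreceptor on dopamine neurons; ENSMUSG00000032259, chromosome 9, 49340627 to 49408177) had 957, 1225 and 989 normalized read counts in WT-Veh mice, 1026, 1023 and 991 in WT-Mem mice, 1023, 967 and 886 in KO-Veh mice and 793, 946 and 875 in KO-Mem mice. All 3 KO-Mem mice were below all 6 WT mice. Over both treatments KO mice averaged 915 ± 80.9 (SD, n = 6) and WT mice 1035 ± 96.6 (SD, n = 6). The log2 difference was -0.18 (SE 0.068, 95% interval -0.32 to -0.03, unadjusted p = 0.0198, adjusted p = 0.0995). It was -0.22 in Mem-K/W transcripts (adjusted p = 0.193) and -0.13 in Veh-K/W transcripts (adjusted p = 0.572), and between KO-Mem and WT-Veh mice it was -0.27 (adjusted p = 0.162). Without WT-Veh mouse 2, the highest of all, the last 2 values were -0.02 and -0.16.

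Adora2a (a receptor for adenosine that raises cyclic AMP; ENSMUSG00000020178, chromosome 10, 75316877 to 75334784), which is made in the same indirect pathway neurons as Drd2, had overlapping groups throughout. Its normalized read counts were 1251 to 1548 (median 1345) in KO-Veh mice, 1361 to 1620 (median 1442) in KO-Mem mice, 1393 to 1721 (median 1403) in WT-Veh mice and 1369 to 1469 (median 1421) in WT-Mem mice. The log2 difference between KO and WT mice was -0.04 with a 95% interval of -0.19 to 0.12. Within a mouse, the log2 ratio of Drd2 to Adora2a was -0.64 ± 0.15 (SD, n = 6) in KO mice and -0.50 ± 0.046 (SD, n = 6) in WT mice. This difference of -0.14 had p = 0.04 in an exact two-sided permutation test within treatments, whose smallest possible p is 0.005, and 0.24 after adjustment over 6 ratios. With one mouse left out at a time, the difference lay between -0.17 and -0.12. The exact permutation p then ranged from 0.025 to 0.1, so that p under 0.05 depended on single mice. The ratio differed by -0.01 in Veh-K/W transcripts (exact permutation p = 0.8) and by -0.27 in Mem-K/W transcripts (exact permutation p = 0.1, the smallest that 3 against 3 mice can give).

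Among the remaining striatal genes, no comparison stood outside the spread between mice after adjustment. Ppp1r1b (ENSMUSG00000061718, chromosome 11, 98348404 to 98357796) had 6207, 6997 and 7977 normalized read counts in WT-Veh mice, 6406, 6324 and 6796 in WT-Mem mice, 6701, 6421 and 6529 in KO-Veh mice and 8150, 7840 and 6181 in KO-Mem mice. As with Ddc, KO-Mem mice 1 and 2 were high and KO-Mem mouse 3 was not, although WT-Veh mouse 3 lay between them. Its log2 difference was 0.17 in Mem-K/W transcripts (95% interval -0.04 to 0.39, adjusted p = 0.327), and without KO-Mem mouse 3 it was 0.30 (adjusted p = 0.0209). That fit called 1911 genes of the whole table, against 12 with all mice. Over both treatments the Ppp1r1b difference was 0.04 (95% interval -0.13 to 0.20).

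Penk (ENSMUSG00000045573, chromosome 4, 4133531 to 4138819) had 4209, 5345 and 4556 normalized read counts in WT-Veh mice and 3907, 4134 and 4226 in KO-Veh mice. WT-Mem mice had 4269, 4023 and 4395 and KO-Mem mice had 3885, 4354 and 4137, so WT-Veh mouse 2 stood above the rest. The log2 difference was -0.20 in Veh-K/W transcripts (SE 0.086, adjusted p = 0.337) and -0.04 in Mem-K/W transcripts (95% interval -0.19 to 0.11). Leaving out WT-Veh mouse 2 brought the vehicle difference to -0.10.

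Tac1 (ENSMUSG00000061762, chromosome 6, 7554879 to 7565834) was the steadiest member, with a coefficient of variation of 6.91% over the 12 mice. It had 884, 973 and 947 normalized read counts in WT-Veh mice, 948, 868 and 1005 in WT-Mem mice, 897, 878 and 888 in KO-Veh mice and 975, 1069 and 860 in KO-Mem mice. Its log2 difference between KO and WT mice was -0.02 (95% interval -0.15 to 0.11). Single members of the direct and the indirect pathway were also compared within mice, namely Tac1 with Penk and Drd1 with Drd2. The log2 ratio of Tac1 to Penk differed by 0.10 between KO and WT mice (exact permutation p = 0.1, adjusted 0.3; without KO-Mem mouse 3, 0.14 with exact permutation p = 0.005, the smallest possible, not adjusted) and by 0.13 between memantine and vehicle mice (exact permutation p = 0.055, adjusted 0.33). The ratio of Drd1 to Drd2 differed by 0.04 between genotypes (exact permutation p = 0.71), which joins -0.13 in Veh-K/W transcripts (exact permutation p = 0.4) and 0.21 in Mem-K/W transcripts (exact permutation p = 0.2). Between treatments this ratio differed by 0.12 (exact permutation p = 0.26, adjusted 0.366). That value joins -0.04 in WT-M/V transcripts (exact permutation p = 0.7) and 0.29 in KO-M/V transcripts (exact permutation p = 0.1, the smallest possible there).

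**Figure D3:**
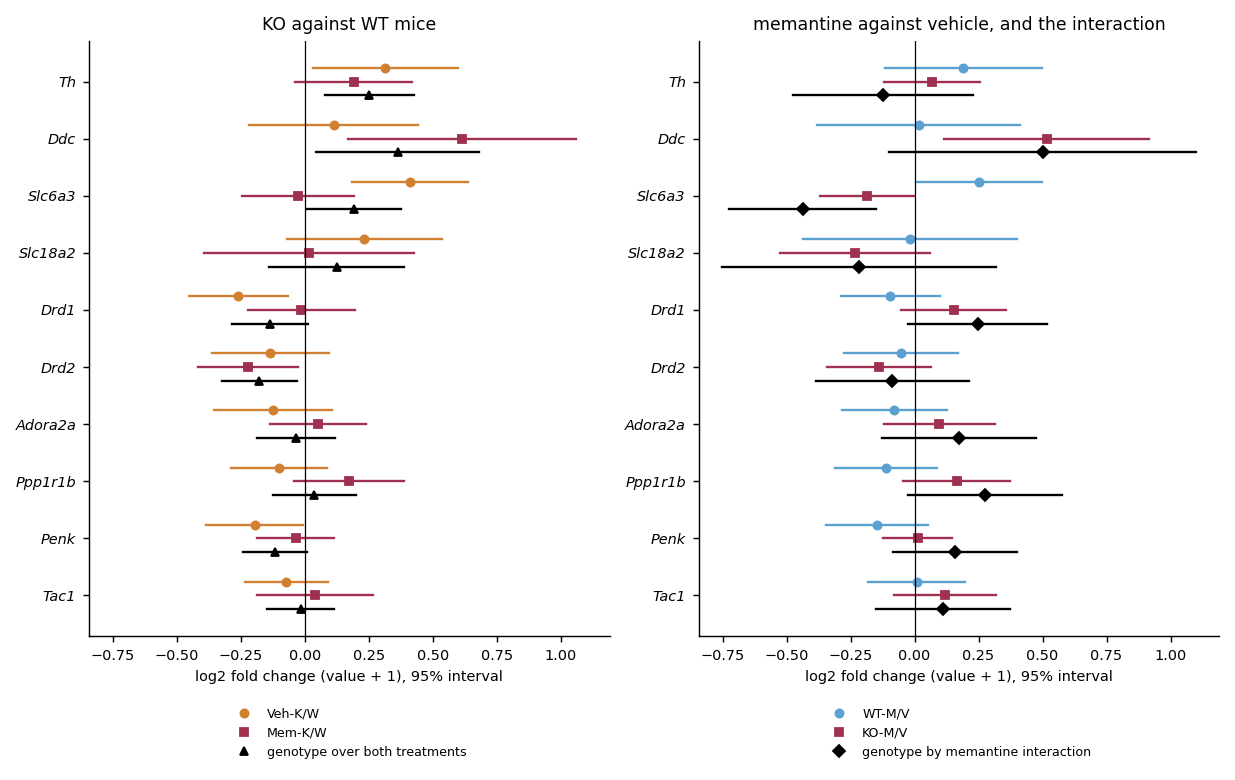
Log2 fold changes of the 10 genes (horizontal axis, points) with 95% intervals (lines); the left panel compares KO with WT mice under vehicle, under memantine and over both, and the right panel compares memantine with vehicle in WT and in KO mice and gives the interaction. The Slc6a3 difference lies at 0.41 under vehicle and at -0.03 under memantine, and none of the differences passed after adjustment over all genes.

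Memantine moved none of the 10 genes past the threshold over both genotypes. The log2 differences ranged from -0.13 for Slc18a2 to 0.27 for Ddc, 0 of 10 had an unadjusted p under 0.05 against 8.6% of all genes, and the smallest adjusted p was 0.631. In KO-M/V transcripts, Th lay higher in every KO-Mem mouse than in any KO-Veh mouse, by 0.07 on the log2 scale (95% interval -0.12 to 0.25, adjusted p = 0.803), and Slc6a3 lay lower, which made 2 of 10 genes without overlap against 13.9% of all genes. In WT-M/V transcripts Slc6a3 alone had no overlap, or 1 of 10 genes against 9.34%.

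Of the 45 pairs among the 10 genes, none had a correlation over the 12 mice that passed adjustment. The strongest was between Ddc and Ppp1r1b (Pearson r = 0.79, permutation p = 0.00316, adjusted 0.142; Spearman rho = 0.68, permutation p = 0.0186, adjusted 0.277), and r was 0.49 without the 2 mice farthest in Ddc, which were KO-Mem mice 1 and 2. After each group was centred on its mean, r for this pair was 0.87 (exact permutation p = 0.0185, adjusted 0.278). Ppp1r1b and Tac1 had r = 0.72 (permutation p = 0.00856, adjusted 0.193) and rho = 0.79 (permutation p = 0.00335, adjusted 0.151), and r = 0.88 without the 2 farthest mice. Drd2 and Penk, both of the indirect pathway, had r = 0.70 (permutation p = 0.0202, adjusted 0.223) and rho = 0.36 (permutation p = 0.246, adjusted 0.55), which came to r = -0.11 without the 2 farthest mice and so rested on them. Drd2 and Adora2a of the same pathway had r = 0.58 (permutation p = 0.0519, adjusted 0.26), or 0.44 without the 2 farthest mice. Centring each group brought that pair to r = 0.84 (exact permutation p = 0.0185, adjusted 0.278). Slc6a3 and Drd1 had r = -0.68 (permutation p = 0.014, adjusted 0.211) and rho = -0.68 (permutation p = 0.0186, adjusted 0.277), with r = -0.66 without the 2 farthest mice. With each group centred on its mean, r was -0.20 (exact permutation p = 0.536), so that relation lay mainly between groups.

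The genes whose log2 values followed a member most closely over the 12 mice were picked by r among the other 17654 genes with a mean of at least 10, as a description with no test. For Th they were Gm37110 (r = 0.93), Gm42608, Gm35558, Slc6a20b and Lsmem1 (r = 0.88), all on other chromosomes. For Slc6a3 they were Gm10686 (r = 0.92), Lage3, Gm10658, Cyp2j6 and Bmp2 (r = 0.87). Drd2 was followed by Loxl1 (r = 0.94), Cd93, Slc38a3, Armt1 and Trpc6 (r = 0.90), and Tac1 by Rela (r = 0.90), Emilin2, Vgf, Vps51 and Cwc25 (r = 0.83). No other member was among them.

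Further enzymes around dopamine synthesis and breakdown were taken as a list. Of 10 such enzymes tested over both treatments, 6 fell in KO mice and 0 rose, against 5.91% of all genes called lower, and their median log2 difference was -0.232. Qdpr, which recycles the tetrahydrobiopterin that Th needs, had 1438 to 2436 normalized read counts in KO mice and 2104 to 3312 in WT mice and fell by 0.52 on the log2 scale (adjusted p = 0.00899). Spr, the last enzyme of tetrahydrobiopterin synthesis, fell by 0.39 (adjusted p = 0.0124). Aldh1a1, an aldehyde dehydrogenase of midbrain dopamine neurons and other cells, had 1163 to 1652 in KO mice and 1590 to 2206 in WT mice and fell by 0.40 (adjusted p = 0.00815). The breakdown enzymes Maob and Aldh2 fell by 0.29 and 0.23. Maoa had a difference of 0.15 (adjusted p = 0.0897), and Gch1, Pts and Dbh did not pass either.

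Several of these enzymes are also made outside dopamine neurons, and some of the glial markers moved the same way. Of 8 oligodendrocyte genes, 6 fell, with Cnp lower by 0.39 (adjusted p = 0.00714), and 3 of 8 astrocyte genes fell (Aqp4, Gja1 and S100b). The astrocyte gene Slc1a3, picked for mention after its value was seen, differed the other way (0.11, adjusted p = 0.157, limma). Of 9 endothelial and blood genes 7 fell, and of 8 microglial genes P2ry12 fell. The summed level of the oligodendrocyte list was 341929 to 419686 in WT-Veh mice, 305642 to 358379 in WT-Mem mice, 297870 to 317196 in KO-Veh mice and 246069 to 290897 in KO-Mem mice. The part of glial content in the enzymes' differences was not tested. Without KO-Veh mouse 3, 3 of the 10 enzymes and 5 of the 8 oligodendrocyte genes were called lower, and without KO-Mem mice 1 and 2 none of either was. The share of all genes called lower was 2.24% and 0.414% in those fits, against 5.91% with all mice, while the median difference of the enzymes was -0.234 and -0.166.

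Genes listed for the identity of midbrain dopamine neurons spanned a wide range of levels. Aldh1a1, Nr4a2 and Ret, which other cells make as well, had means of 1610, 1124 and 577 normalized read counts, while En1 ranged from 9.08 to 48.5 normalized read counts and Slc10a4 from 156 to 256. The mean of Pitx3, a defining factor of midbrain dopamine neurons, was 5.09, too low for a test. Its values were 0.706 to 5.4 in WT mice and 1.76 to 10.7 in KO mice. Of 12 midbrain identity genes tested, 2 fell and 0 rose in KO mice, against 5.91% and 4.89% of all genes, namely Nr4a2 (by 0.26, adjusted p = 0.0299), which is also a cortical and activity-regulated gene, and Aldh1a1. None of the other tested genes of that list passed. Their differences were positive for En2 (0.72, adjusted p = 0.111), Lmx1a (0.44), En1 (0.31), Foxa1 (0.28), Lmx1b (0.22), Otx2 (0.08), Slc10a4 (0.06) and Chrna6 (0.04). They were negative for Ret (-0.12) and Sncg (-0.05). The median difference of the list was 0.0712, and 0.0797 without KO-Veh mouse 3, the mouse with the most Fat2. Otx2 is also in the choroid plexus list. The part of other regions and cells in these differences was not tested.

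Of 17 genes of striatal projection neurons, 3 fell and 0 rose in KO mice, against 5.91% and 4.89% of all genes, and the median log2 difference of the list was -0.0519. Rasgrp2, an exchange factor for Rap proteins, fell by 0.40 (adjusted p = 0.0184), the potassium channel subunit Kcnip2 by 0.20 (adjusted p = 0.0282) and the striatal-enriched phosphatase Ptpn5 by 0.18 (adjusted p = 0.0385). None of the 3 was called without KO-Veh mouse 3, when 2.24% of all genes were called lower, or without KO-Mem mice 1 and 2, when 0.414% were, while the median of the list was -0.0517 and -0.0396. Rgs9 (-0.01) and Pde10a (0.01), which are hallmarks of these neurons, differed by less than their SE. Rgs9 and Pde10a, like Maoa, Ret, En1, Slc10a4 and Pitx3 above, were picked for mention after their values were seen. Of 6 further direct pathway genes and 5 further indirect pathway genes, 0 were called, and the smallest p-values were those of Sfxn1 (0.16, adjusted p = 0.0602) and Pdyn (0.06, adjusted p = 0.491) in the direct list and of Adk (-0.14, adjusted p = 0.111) and Ttc12 (-0.29, adjusted p = 0.123) in the indirect list.

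**Figure D4:**
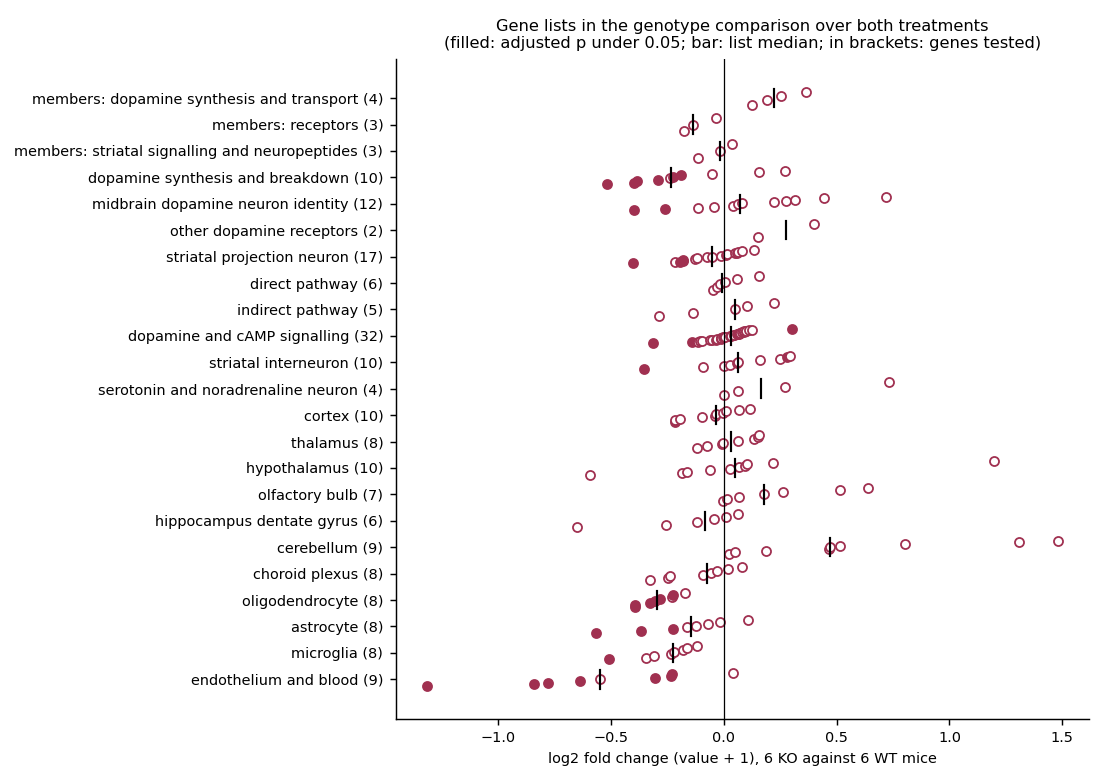
Log2 fold changes between 6 KO and 6 WT mice (horizontal axis) for each gene tested in the lists named on the vertical axis; filled points passed an adjusted p of 0.05 and vertical bars are list medians. The 10 enzymes of dopamine synthesis and breakdown include 6 filled points below 0, as the oligodendrocyte list does, while all 10 members are unfilled.

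Downstream of the receptors, 1 of 32 genes of dopamine and cyclic AMP signalling rose and 2 fell in KO mice, against 4.89% and 5.91% of all genes. Grk3, a kinase that desensitizes receptors, rose by 0.30 (adjusted p = 0.0154). Rgs4, which shortens G protein signalling, fell by 0.31 (adjusted p = 0.0202), and Gnao1, the alpha subunit of the G protein Go, fell by 0.14 (adjusted p = 0.0386). The median of the 32 genes was 0.0314 against 0.0035 over all genes. Of 10 striatal interneuron genes, Lhx6 rose by 0.28 (adjusted p = 0.045) and Pvalb fell by 0.35 (adjusted p = 0.0347), both of which are also made in cortical interneurons. The other dopamine receptors were scarce, with Drd5 at 104 to 155 and Drd3 at 14.1 to 32.1 normalized read counts, and neither passed (0.15 and 0.40, adjusted p = 0.371 and 0.196). Between KO-Mem and WT-Veh mice, Qdpr (by 0.87), Aldh1a1 (by 0.57) and Pvalb (by 0.61) fell as well, with adjusted p = 0.0258, 0.0323 and 0.0403, and no other gene of the dopamine and striatal lists passed in a comparison other than that of genotype over both treatments. Without KO-Veh mouse 3, 1 gene was called in each of the signalling, interneuron and midbrain identity lists, and without KO-Mem mice 1 and 2 none was, as calls fell over the whole table.

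The markers of the other regions and cell types were also tested in the genotype comparison. Of 10 cortical genes Rorb fell (by 0.22, adjusted p = 0.0406), and none of 8 thalamic, 10 hypothalamic, 7 olfactory bulb, 6 dentate gyrus, 9 cerebellar, 8 choroid plexus and 4 serotonin or noradrenaline neuron genes was called. The cerebellar list had a median difference of 0.47 with KO-Veh mouse 3 and of 0.00377 without it. Of the members' exons, some of Ppp1r1b and Penk overlap opposite-strand genes with mean normalized read counts of 72.0 and 15.7. Some of Slc18a2 overlap the opposite-strand Gm29261, which had no row. The library kit keeps no strand, so reads that lie wholly in the shared stretches cannot be told apart.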

How the data were processed

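Forebrain RNA of 12 mice was sequenced by the authors from TruSeq v2 libraries. The deposited signal values are normalized counts: per the labels the authors used Salmon 1.1.0 on GRCm38, R 3.6.2 and DESeq2 1.26.0, and the methods describe gene-level import with tximport and division by size factors. Whole reads could not be recovered, so depth is unknown. Genes with a mean of at least 10 over the mice of a fit were tested as log2(value + 1) with limma 3.58.1 (variance trend, R 4.3.3), without covariates, on the 6 mice of each pairwise comparison and on all 12 mice for genotype, memantine and their interaction. Benjamini-Hochberg adjustment ran over all genes tested, with a threshold of 0.05. The fit was tested on simulated data. Intervals are 95% limma intervals. Fold changes on this scale understate those of low genes. Correlations used 100000 permutations, and ratios of members used exact permutation within strata. Lengths and positions are from GENCODE M21, matched for 19295 genes. The members, lists and tests were chosen with earlier results of these data known. Named from the lists were genes past the threshold in any comparison and, for dopamine and striatal lists, the 2 with the smallest p in the genotype comparison. All tested genes of the midbrain identity list were named too, with their values known. Genes of the lists with no row, among them Gpr52, Fev, Slc6a2 and Phox2a, were not analysed here, and single values of some genes counted in the lists are not reported here. Where nothing says that mice came from separate litters, p-values measure the spread between these mice.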

Additional observations from a re-analysis of the deposited data

Results flagged for a closer look

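Slc6a3 had memantine differences of opposite sign in the 2 genotypes, neither of which passed adjustment (adjusted p = 0.978 in WT and 0.56 in KO mice, limma). Its log2 difference was 0.25 in WT-M/V transcripts, with all 3 WT-Mem mice above all 3 WT-Veh mice, and -0.19 in KO-M/V transcripts, with all 3 KO-Mem mice below all 3 KO-Veh mice. The test of the difference is the interaction, -0.44 with an unadjusted p of 0.00562 and an adjusted p of 0.947 (limma). Of 17292 genes tested in both comparisons, 75 (0.434%) were without overlap in opposite directions, 27 of them in the direction of Slc6a3.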

How the results depend on the processing

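Of 746 values of the members recomputed under the alternatives, 715 kept their direction and their side of the threshold, 8 gained a call (those given above for Th, Ddc and Ppp1r1b, and Th in KO-Mem against WT-Veh mice with 12 mice in one fit, adjusted p = 0.0476) and 23 changed sign. The sign of Drd1 in Mem-K/W transcripts changed with equal sums (0.0035) and median centring (0.0081), that of Tac1 over both treatments with median centring (0.0039), and that of Ppp1r1b over both treatments without KO-Mem mice 1 and 2 (-0.0918), an alternative chosen after seeing the data. Leaving out one mouse gave ranges across 0 for Ddc in Veh-K/W (-0.0323 to 0.277) and WT-M/V transcripts (-0.14 to 0.18), Slc6a3 (-0.0666 to 0.0316), Drd1 (-0.0764 to 0.0451) and Penk (-0.0759 to 0.00615) in Mem-K/W, Penk in KO-M/V (-0.0277 to 0.0544), Drd2 in WT-M/V (-0.12 to 0.0582), Adora2a (-0.0765 to 0.0182), Ppp1r1b (-0.0126 to 0.0924) and Tac1 (-0.056 to 0.0135) over both treatments, the Th interaction (-0.236 to 0.0155), and the genotype differences of the Drd1 to Drd2 (-0.0237 to 0.0806) and Th to Slc6a3 ratios (-0.0042 to 0.101).

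The count of all genes called moved more, and the cause was not tested. Veh-K/W (5 genes) had 3 with a pseudocount of 5, 2 with a mean of at least 50 and 2 with 12 mice in one fit. Mem-K/W (12) had 5 with no filter, 634 in one fit and 4 without the variance trend. WT-M/V (2) had 1 with the pseudocount of 5, 0 with the mean of at least 50 and 0 in one fit. KO-M/WT-V, KO-Mem against WT-Veh (595), had 365 with no filter, 2065 in one fit and 7 without the trend. WT-M/KO-V, WT-Mem against KO-Veh (4), had 0 without the trend. The genotype comparison (1907) had 894 without the trend and 103 without KO-Mem mice 1 and 2. With one mouse left out, the counts were 2 to 53 in Veh-K/W (most without KO-Veh mouse 2), 2 to 1911 in Mem-K/W, 0 to 97 in KO-M/V, 1 to 3 in WT-M/V, 1 to 2490 in KO-M/WT-V, 1 to 5 in WT-M/KO-V, 694 to 2683 for genotype, 0 to 0 for memantine and 0 to 4 for the interaction. The highest counts in Mem-K/W, KO-M/V, KO-M/WT-V, genotype and interaction came without KO-Mem mouse 3, and the lowest for genotype without KO-Veh mouse 3.

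The labels number the mice 1 to 3 in each group. Mice with the same number did not deviate together (r from -0.175 to 0.0802 over the pairs), so the numbers were not taken to pair the mice. In a fit with a replicate block, the counts were 2 in Veh-K/W, 4 in Mem-K/W, 1 in WT-M/V, 999 in KO-M/WT-V, 2 in WT-M/KO-V and 1825 for genotype, and no member gained or lost a call. The ratio of Drd2 to Adora2a then had an exact permutation p of 0.0938.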
